A study of Drosophila melanogaster with 6 samples.

Results

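The ecdysone receptor, its early response genes and the ecdysone-inducible gene ImpL2 were followed in Drosophila S2 cells from the Drosophila Genomics Resource Center (DGRC), a line that was set up from embryos and resembles phagocytic blood cells. The set was chosen by gene name, with earlier results of these data known. It holds 9 genes, EcR, usp, br, Eip74EF, Eip75B, Eip78C, Hr39, ftz-f1 and ImpL2. Of these, 7 were read by 15 probe sets, out of 11981 genes and 18952 probe sets in all. The probe annotation used here pairs no probe set with Eip74EF or Eip75B, so these 2 genes were not analysed here. Each group had 2 arrays, 6 in all, on the Affymetrix Drosophila Genome 2.0 platform. NELF-depleted cells received dsRNA against the NELF-B and NELF-E subunits of the negative elongation factor (NELF), which holds RNA polymerase II paused shortly after it starts transcription. Mock cells received dsRNA against bacterial β-galactosidase, and untreated cells received none. Both dsRNA treatments lasted 96 hours. All groups grew in M3 medium with bacto-peptone, yeast extract and fetal bovine serum, and the labels name no added ecdysone. Separate cultures are not named in the labels for the arrays of 1 group, so the p-values rest on the spread between arrays, which may be technical, and precision is limited by having 2 arrays a group.

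Ecdysone is the steroid hormone that times moulting and metamorphosis in insects. Its active form binds a pair of nuclear receptors, EcR and Ultraspiracle (usp, the fly ortholog of vertebrate RXR), which sit on DNA as a heterodimer and switch target genes on when hormone is bound and hold them down without it. The first targets, the early genes, mostly encode transcription factors that go on to control later genes, and cultured Drosophila cells of this kind are known to respond to the hormone.

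Levels are normalized log2 intensities, and a change is called where limma with an intensity-dependent prior gave a Benjamini-Hochberg adjusted p under 0.05 over all 11981 genes. Background, the 95th percentile of 17 control probe sets that match no fly gene, lay at a level of 3.88, and all 7 genes had means above it. The dsRNA targets were low in NELF-depleted cells. NELF-B stood at 6.05 ± 0.273 (SD, n = 2) in NELF-depleted, 7.98 ± 0.0756 in mock and 8.05 ± 0.0728 in untreated cells, and Nelf-E at 5.82 ± 0.115, 8.22 ± 0.0789 and 8.27 ± 0.170 in the same order. Of 10 blood cell markers measured, 9 were above background, among them the GATA factor gene srp. Of 7 measured markers of neurons, muscle, fat body and germline only elav was, with a level of 6.29 in NELF-depleted, 6.31 in mock and 6.46 in untreated cells. Median deposited intensities were 11.9 and 11.7 in NELF-depleted, 14.0 and 12.1 in mock, and 13.9 and 14.2 in untreated cells.

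Against mock cells, br and ImpL2 were lower in NELF-depleted cells and the receptor genes were not called. The mRNA of br, which encodes the Broad family of zinc finger transcription factors, stood at 50.9% of its mock level, and that of ImpL2, which encodes a secreted protein that binds insulin-like peptides, at 66.1%. No gene of the set was called higher, where 0.267% of all genes were. The other 5 measured genes, EcR, usp, Eip78C, Hr39 and ftz-f1, did not pass the test, with log2 fold changes from -0.0049 for usp to 0.52 for EcR. In all, 2 of 7 measured genes were called, against a background of 1.35% of all genes, or 1.09% called lower. As the set was chosen with earlier results known, its share is a description. The median log2 fold change was 0.12 over the 7 genes and 0.012 over all genes.

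Broad is an early gene that the hormone-bound receptor induces directly, and its proteins commit larval tissues to metamorphosis. By its brightest probe set, 1635691_at, br had log2 levels of 7.48 and 7.56 in NELF-depleted cells, against 8.63 and 8.35 in mock cells and 8.58 and 8.63 in untreated cells. Both NELF-depleted arrays lay below all 4 control arrays, with a gap of 0.79 between the groups where the controls themselves spanned 0.28. As deposited, before arrays were brought to a common level, its intensities were 170.3 and 155.6 in NELF-depleted, 441.3 and 254.0 in mock, and 461.6 and 474.5 in untreated cells. The group means were 7.52 ± 0.0560, 8.49 ± 0.200 and 8.61 ± 0.0360 (SD, n = 2 each) in NELF-depleted, mock and untreated cells. Over all genes, 11% had both NELF-depleted arrays below all 4 control arrays. Against mock, br fell by 0.97 on the log2 scale (SE 0.129, limma adjusted p = 0.00332), the 58th smallest p of 11981 genes. Against untreated cells it fell by 1.09 (SE 0.129, adjusted p = 0.00189). Those comparisons share the NELF-depleted arrays and are not independent. Mock against untreated cells gave -0.12 (95% interval -0.40 to 0.17), so the controls did not differ beyond their spread.

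ImpL2 was named for its induction by ecdysone, and its product counteracts insulin signalling. Its log2 levels were 12.56 and 12.42 in NELF-depleted cells, against 13.13 and 13.05 in mock cells and 12.94 and 13.07 in untreated cells. Again both NELF-depleted arrays lay below all 4 control arrays, here by 0.38, where the controls spanned 0.19. Deposited intensities were 6424 and 5051 in NELF-depleted, 9282 and 7125 in mock, and 8499 and 9115 in untreated cells. ImpL2 fell by 0.60 against mock (SE 0.110, limma adjusted p = 0.0276). Against untreated cells the value was -0.51 (SE 0.110, 95% interval -0.76 to -0.27), which missed the threshold over all genes (adjusted p = 0.0567). Mock cells stood 0.084 above untreated cells (95% interval -0.16 to 0.33).

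**Figure D1:**
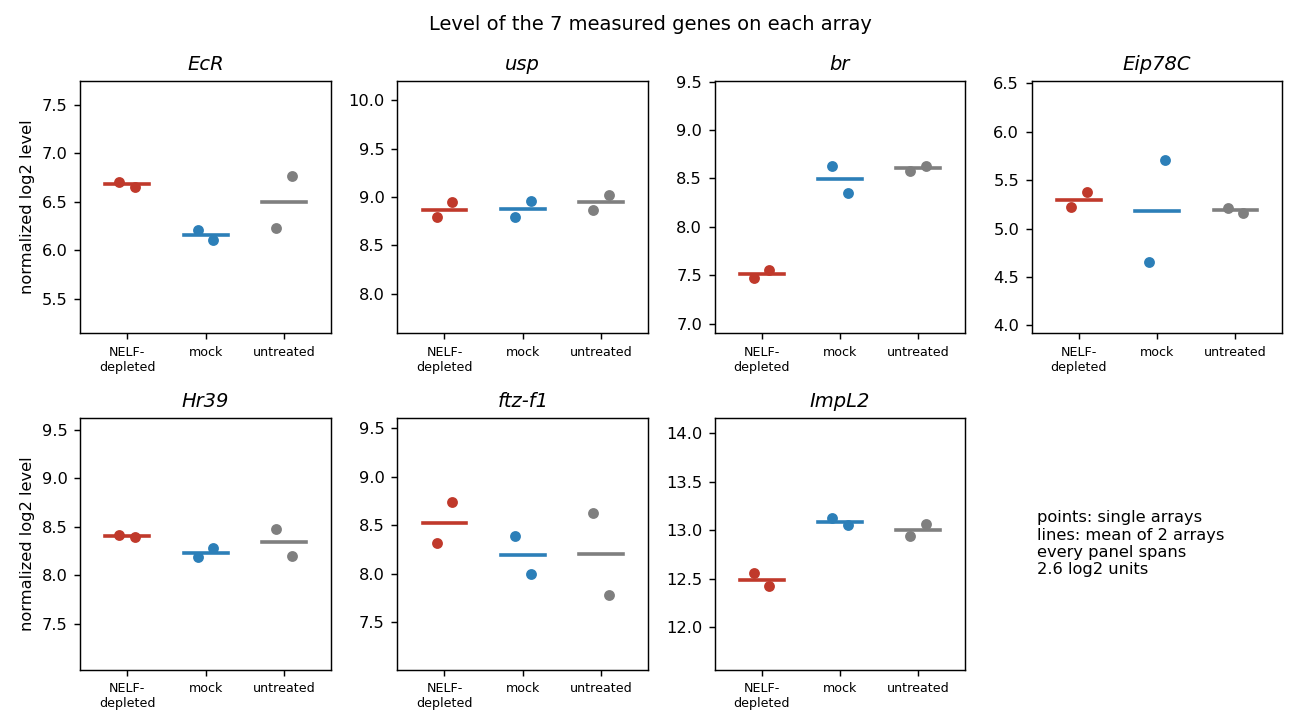
Normalized log2 level (vertical axis) of the 7 measured genes on each of the 6 arrays, with NELF-depleted, mock and untreated cells along the horizontal axis; points are single arrays, lines are means of 2 arrays, and every panel spans the same number of log2 units. For br and ImpL2 both NELF-depleted points lie below all 4 control points, with gaps of 0.79 and 0.38.

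The calls of br and ImpL2 depended on the settings of the test. When limma used 1 prior variance for every gene, it called 0 of 11981 genes against mock (1097, or 9.16%, at an unadjusted p under 0.05, br and ImpL2 among them), and br had an adjusted p of 0.207 and ImpL2 one of 0.315. With the intensities as deposited, the call of ImpL2 against mock ended (-0.51, adjusted p = 0.9996). It ended too after scaling by array medians (-0.38, adjusted p = 0.781). The call of br against mock ended in these settings as well (-1.04, adjusted p = 0.119, as deposited and -0.91, adjusted p = 0.12, with array medians). That of br also ended with the median over its probe sets (-0.32, adjusted p = 0.868). Against untreated cells the call of br ended with the single prior (adjusted p = 0.209) and the median over probe sets (-0.15, adjusted p = 0.946). Leaving out any 1 array kept its call against both controls, with values against mock from -1.12 to -0.83. The call of ImpL2 against mock ended without mock replicate 1 (adjusted p = 0.145) or 2 (0.118) and without NELF-depleted replicate 1 (0.141) or 2 (0.341).

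The br gene was read by 5 probe sets, which show different parts or transcripts of it. The names ending in _s_at or _a_at mark probes that match several transcripts. All 5 had lower means in NELF-depleted than in mock and untreated cells, but they share a gene and its arrays, and 4 of them were dim. Probe set 1629683_at had levels of 4.43 and 2.74 in NELF-depleted, against 4.84 and 4.79 in mock and 5.58 and 5.08 in untreated cells. Its NELF-depleted mean was below background, so only a bound on the difference of means can be given. That was at least 1.58-fold lower than mock and 2.27-fold lower than untreated (limma adjusted p = 0.536 and 0.339 over 18769 probe sets). The bound makes no allowance for the spread between arrays, and only NELF-depleted replicate 2 was below background. The fitted 95% interval against mock, -2.53 to 0.071, included 0. Probe set 1626996_s_at read 4.24 and 4.35 in NELF-depleted, against 4.60 and 4.58 in mock and 4.55 and 4.53 in untreated cells. Both of these sets had NELF-depleted arrays below all control arrays. The remaining pair, 1636931_at and 1637312_a_at, overlapped between NELF-depleted and mock cells, with log2 fold changes of -0.12 (SE 0.620) and -0.14 (SE 0.530). In the fit over all 18769 probe sets, 2 of the 15 were called against mock, the bright br set (adjusted p = 0.00313) and that of ImpL2 (0.0177), beside 1.02% of all probe sets. In that fit the call of br against mock ended without mock replicate 1 (adjusted p = 0.0518) and without NELF-depleted replicate 1 (0.0651) or 2 (0.0542), and that of ImpL2 ended without any of the 4 mock and NELF-depleted arrays (0.0964 to 0.334). Against untreated cells it called the same 2 probe sets, ImpL2 with an adjusted p of 0.0387, beside 1.13% of all probe sets. That call of ImpL2 ended whichever of the 6 arrays was left out (0.0701 to 0.515).

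**Figure D2:**
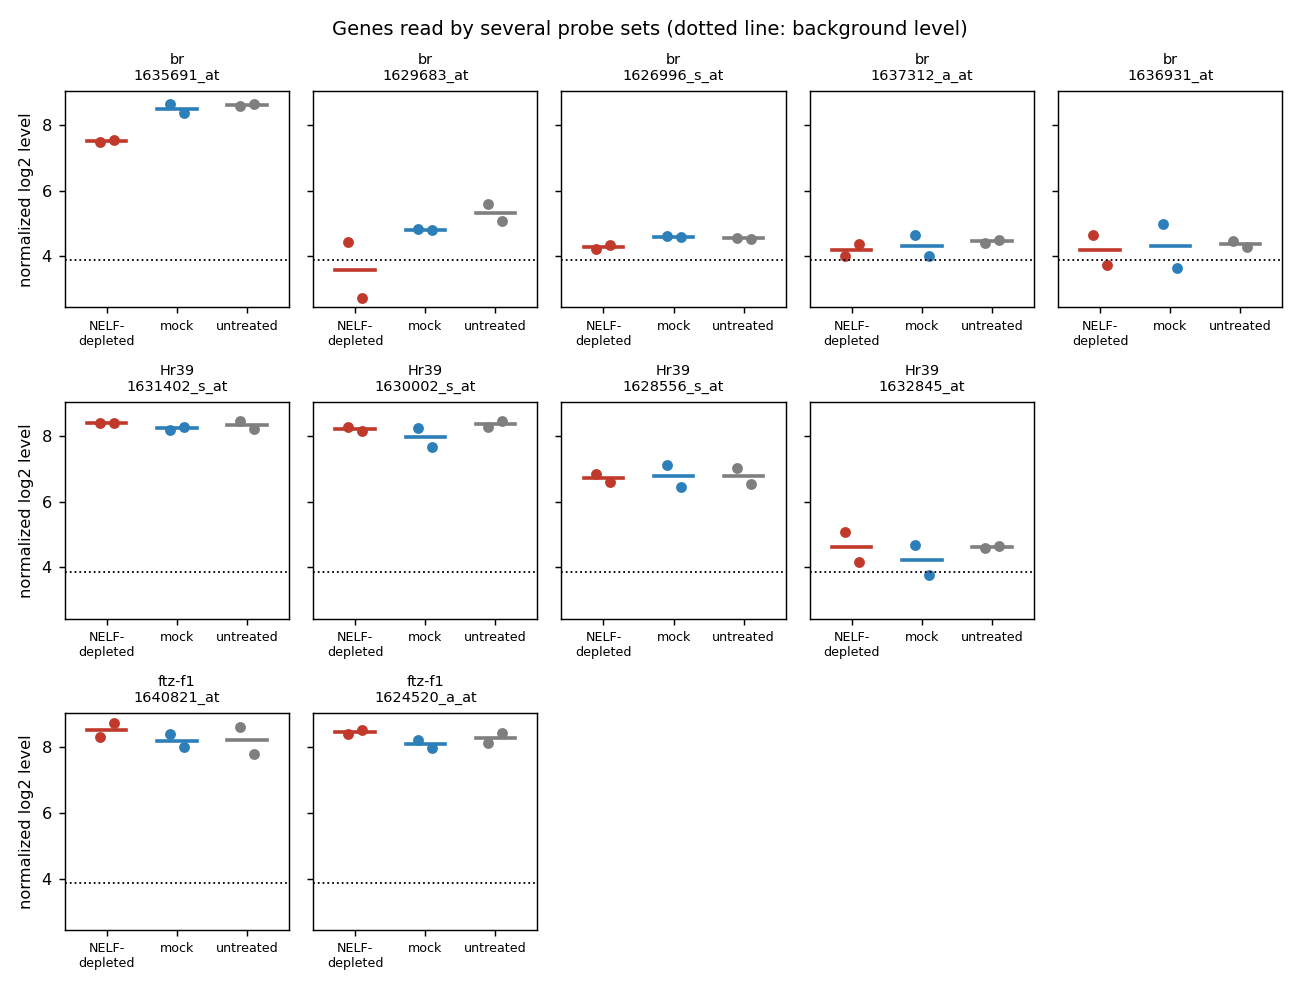
Normalized log2 level (vertical axis) of each probe set of br (5), Hr39 (4) and ftz-f1 (2) in NELF-depleted, mock and untreated cells; points are single arrays, lines are means of 2 arrays and the dotted line is the background level of 3.88. The bright br set separates NELF-depleted from control arrays, and the other 4 br sets lie near background.

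The receptor genes themselves were not called in any comparison. EcR, which encodes the hormone-binding partner, had log2 levels of 6.71 and 6.65 in NELF-depleted cells, against 6.21 and 6.11 in mock cells and 6.23 and 6.77 in untreated cells. NELF-depleted arrays were above both mock arrays, but 1 untreated array was higher still. The log2 fold change against mock was 0.52 (SE 0.239, 95% interval -0.0095 to 1.05, adjusted p = 0.462) and against untreated 0.18 (95% interval -0.35 to 0.71). Mock against untreated gave -0.34 (95% interval -0.87 to 0.19). The order of means was NELF-depleted, untreated, mock, and the gap between NELF-depleted and untreated cells was smaller than the untreated SD of 0.384.

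The partner receptor gene usp was the steadiest of the set. It read 8.80 and 8.94 in NELF-depleted, 8.79 and 8.96 in mock, and 8.87 and 9.02 in untreated cells, so the groups overlapped throughout. Its log2 fold change was -0.0049 against mock (SE 0.113, 95% interval -0.26 to 0.25) and -0.075 against untreated (95% interval -0.33 to 0.18). Scaling the arrays on the 9 spiked-in hybridization controls shifted the median of all genes by -0.42 against mock and -0.35 against untreated. Under it usp was called lower (-0.44, adjusted p = 0.0241, and -0.49, adjusted p = 0.0195), values that lay 0.018 and 0.14 below those medians. Relative to the same medians, br lay at -0.97 and -1.15 and ImpL2 at -0.45 and -0.26.

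The orphan nuclear receptors of the set were also not called. Hr39, known in vertebrates through its relatives SF-1 and LRH-1, is repressed or induced by ecdysone according to stage. By its brightest probe set it read 8.41 and 8.39 in NELF-depleted, 8.19 and 8.28 in mock, and 8.47 and 8.20 in untreated cells. NELF-depleted arrays were above both mock arrays and within the range of the untreated ones. The log2 fold change was 0.17 against mock (SE 0.124, 95% interval -0.11 to 0.44, adjusted p = 0.702) and 0.065 against untreated. Its 4 probe sets gave values against mock from -0.065 to 0.39, 3 of them above 0.

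The gene ftz-f1 encodes another receptor of that family, which makes prepupal tissues competent to respond to a later hormone pulse. It was read by 2 probe sets. By 1640821_at its levels were 8.32 and 8.74 in NELF-depleted, 8.39 and 8.002 in mock, and 8.63 and 7.78 in untreated cells, so arrays of 1 group differed by up to 0.85 and the groups overlapped. By 1624520_a_at they were 8.39 and 8.53, 8.21 and 7.98, and 8.12 and 8.42 in the same order, with NELF-depleted arrays above both mock arrays. The log2 fold changes against mock were 0.33 (SE 0.250, adjusted p = 0.71) over genes and, by the second set, 0.36 (SE 0.141, adjusted p = 0.405) over probe sets. Eip78C, an early-late gene whose product resembles that of Eip75B, was the noisiest. It read 5.22 and 5.38 in NELF-depleted, 4.66 and 5.70 in mock, and 5.21 and 5.17 in untreated cells. The mock arrays enclosed all others, and the log2 fold change against mock of 0.12 had a 95% interval of -0.81 to 1.04, the widest of the set.

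**Figure D3:**
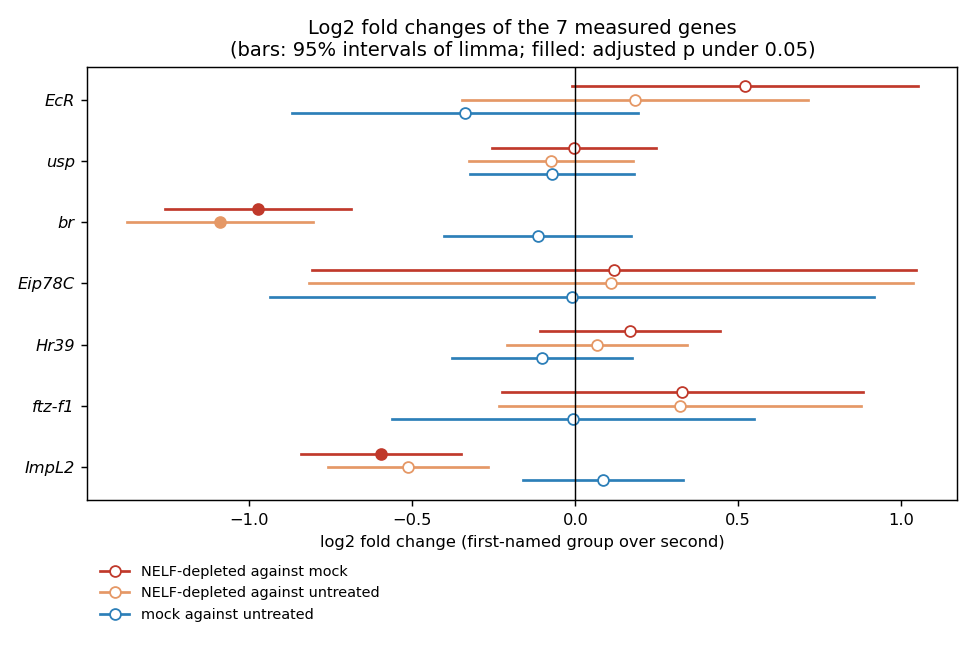
Log2 fold changes (horizontal axis) of the 7 measured genes in NELF-depleted against mock, NELF-depleted against untreated and mock against untreated cells; bars are 95% intervals of the limma fit and filled points have an adjusted p under 0.05. The intervals of br and ImpL2 lie below 0 in both NELF-depleted comparisons, while those of EcR, usp, Eip78C, Hr39 and ftz-f1 include 0.

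Against untreated cells, 1 of the 7 measured genes was called, br, beside 1.41% of all genes (1.18% lower and 0.234% higher), with a median log2 fold change of 0.065 over the 7 genes and 0.0084 over all genes. With the single prior variance 0 genes were called there and 8.71% had an unadjusted p under 0.05, br and ImpL2 among them. Arrays of those groups did not overlap for 3 of the 7, br, ImpL2 and Eip78C, where 40.8% of all genes did not. In mock against untreated cells limma called 0 of the 7, beside 0% of all genes. At an unadjusted p under 0.05 that comparison had 0 of the 7 genes and 408 of 11981 (3.41%), and the single prior variance gave 0 adjusted calls and 602 unadjusted ones (5.02%) over all genes. Mock and untreated arrays did not overlap for 1 of the 7, EcR, where 28.4% of all genes did not. The log2 fold changes of the 7 genes there lay between -0.34 for EcR and 0.084 for ImpL2. Arrays of NELF-depleted and mock cells did not overlap for 4 of the 7, br, ImpL2, EcR and Hr39, where 39.2% of all genes did not.

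Genes whose levels followed br or ImpL2 over the 6 arrays were found by the root-mean-square difference between centred log2 levels, among 6532 genes above background. Nearest to br were CG46491 (0.055), Fmo-2, a flavin monooxygenase gene (0.074), and CG1607 (0.086), with log2 fold changes against mock of -1.01, -1.12 and -0.91. Nearest to ImpL2 were spz, which encodes the Toll ligand (0.057), CG7530 (0.062) and CG4766 (0.062), with -0.69, -0.53 and -0.54. They were selected for likeness to genes that fell, so their own falls are a description. In the Release 6 gene table of RefSeq, ImpL2 overlaps 1 other gene, whose level is not given here. There br overlaps Mur2B, which makes a mucin-like protein. Its own probe set read 5.04 and 4.79 in NELF-depleted, 2.18 and 4.30 in mock, and 2.48 and 4.50 in untreated cells, with control means below background and no call (adjusted p = 0.532 against mock).

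Lists of other ecdysone-related genes, receptor cofactors and other nuclear receptors held 1 call. Not all of these genes are part of the ecdysone pathway. Of 79 genes listed, 67 were measured and 33 of those were above background. Against mock, 1 of the 67 was called higher and 0 lower, beside 0.267% and 1.09% of all genes, and 4 had an unadjusted p under 0.05, beside 11% of all genes. The 67 genes had a median log2 fold change of 0.033 beside 0.012 over all genes. The called gene was Hsp26, a small heat shock gene that ecdysone also induces. It read 9.33 and 9.58 in NELF-depleted, 8.55 and 8.43 in mock, and 8.80 and 8.37 in untreated cells. It rose by 0.96 against mock (SE 0.148, adjusted p = 0.00883) and by 0.87 against untreated (adjusted p = 0.0153). Both calls ended with the single prior (adjusted p = 0.295 and 0.364), as deposited (0.183 and 0.405) and with an offset of 50 (0.0582 and 0.0726), and that against untreated also with array medians (0.215). Leaving out mock replicate 1 (0.0759) or 2 (0.136) or NELF-depleted replicate 2 (0.149) ended the call against mock, and leaving out NELF-depleted replicate 1 (0.0594) or 2 (0.218) or untreated replicate 2 (0.138) that against untreated. Hsp26 went in the opposite direction to br and ImpL2, and Hsp27, another ecdysone-inducible heat shock gene, had a value of 0.053 (SE 0.109).

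Receptor cofactor genes were all above background, and none of the 14 measured was called. The coactivator gene tai had a value of 0.35 (SE 0.201, adjusted p = 0.593), the largest of the list, and the corepressor gene Smr one of 0.15. The cofactor gene rig had -0.14 and E(bx), which encodes a chromatin remodelling subunit, -0.12. The list's median was 0.065. Of 15 other nuclear receptor genes, 5 were above background and 0 were called by limma (0 at an unadjusted p under 0.05 and 0 with the single prior after adjustment), beside 1.35% of all genes called and 11% at an unadjusted p under 0.05. Among these Hr78 had -0.18 (SE 0.094) and Hnf4, which encodes a regulator of lipid metabolism, -0.16 (SE 0.099), while Hr38 and kni were below background in every group.

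Genes listed for making or breaking down the hormone were mostly below background, and the importer gene EcI was not measured. Of 10 measured, 3 were above background, spo, Cyp18a1 and Ptth, with spo just below it in mock cells. The enzyme genes dib, spok, shd and sro of ecdysone synthesis were below it in every group. Of 26 measured ecdysone-inducible genes 9 were above background. Sgs4, ImpE2 and Edg84A, whose unadjusted p-values were the smallest after that of Hsp26, were below background in every group. MsrA, listed under its older name Eip71CD and long known as ecdysone-induced in cultured cells, had a value of 0.060 (SE 0.173), Cth, formerly Eip55E, 0.019 (SE 0.099) and Kr-h1, a juvenile hormone response gene, -0.036 (SE 0.131). By its means ImpE3 was above background in mock and untreated cells only. It read 1.22 and 3.92 in NELF-depleted, 5.44 and 3.57 in mock, and 5.59 and 5.45 in untreated cells. NELF-depleted and mock arrays overlapped, and mock replicate 2 was itself below background. The NELF-depleted mean of ImpE3 was at least 1.53-fold lower than that of mock, a bound that depends on mock replicate 1. ImpE3 did not pass the limma test against mock (adjusted p = 0.459). Against untreated cells it was at least 3.08-fold lower and did not pass either (limma adjusted p = 0.222). Of 5 listed death genes known as ecdysone targets, only 2 were measured. Dark had -0.25 (SE 0.162) and Dronc 0.094 (SE 0.120), and neither passed.

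**Figure D4:**
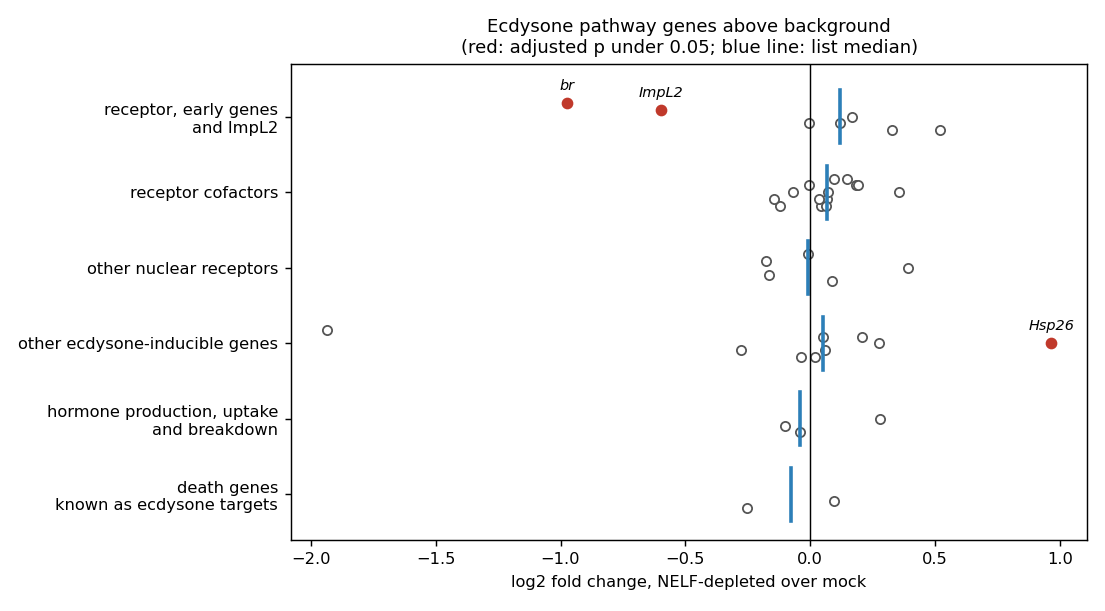
Log2 fold change in NELF-depleted against mock cells (horizontal axis) of genes above background, in 6 lists (vertical axis, points spread for legibility). The lists hold ecdysone-related genes, receptor cofactors and other nuclear receptors, not all of them part of the ecdysone pathway. Red points have an adjusted p under 0.05 and blue lines are list medians. Among these genes only br, ImpL2 and Hsp26 are red, at -0.97, -0.60 and 0.96, and the open point farthest to the left is ImpE3, whose NELF-depleted mean was below background.

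Of the 10 blood cell markers, 2 were called against mock, both lower, beside 1.35% of all genes called and 1.09% called lower. These were the phagocytic receptor genes drpr at -0.87 (SE 0.112) and eater at -0.87 (SE 0.148). The other 8 were not called. Values of the 10 ran from -2.10 to 1.23, 6 above 0 and 4 below, and the median was 0.14. The lowest and the highest value were those of uncalled markers. Among those not called, Pxn had 0.52 (adjusted p = 0.217) and ush 0.42 (adjusted p = 0.146). At an unadjusted p under 0.05 stood 6 of the 10, beside 11% of all genes. The list's summed normalized intensity was 10384 to 10415 in NELF-depleted, 8822 to 9201 in mock and 8608 to 10793 in untreated cells. The NELF-depleted sums lay above both mock sums and within the untreated range. The markers' part in the values of br and ImpL2 was not tested. Fewer cells of a kind and less mRNA per cell cannot be told apart in these bulk samples.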

How the data were processed

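The authors deposited 1 linear intensity per probe set and array, all above 0 and up to 19042. Per the series' design text, scanning software was GeneChip Operating Software 1.2.0.037 or Command Console 1.1 (Affymetrix), followed by Rosetta Resolver 6.0. How probes were summarised, background treated and arrays scaled is unknown here. Groups come from sample titles.

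Here log2(intensity + 0.819) was taken, with the 5th percentile of all deposited values as offset, a scale that makes changes of dim genes look smaller. Arrays were quantile normalized over 18952 probe sets, and 183 controls were then left out. Probe sets with exactly 1 annotated gene were kept, the one of highest mean standing for its gene. Names of 11893 genes were updated through RefSeq's Release 6 plus ISO1 MT table. Positions are left out, as no genome build is named.

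The test was limma 3.58.1 under R 4.3.3 (3 group means over 6 arrays, 3 residual degrees of freedom, two-sided). The intensity-dependent prior (7.31 prior degrees of freedom) was preferred since arrays of a group differed by medians of 0.140 to 0.165 above background and 0.787 to 0.863 below it. Members, lists and this test were chosen with earlier results of these data known. Named genes are all members, the 4 of smallest p per list and any called, and the 3 nearest in pattern to br and ImpL2. MsrA, Cth, Kr-h1, Hsp27, ImpE3, Mur2B, spo, Cyp18a1, Ptth and the blood cell markers srp, Pxn and ush were added after their values were seen. EcI is named as not measured. "At least" folds set, per array, the higher of background and the dim value against the brighter group. They make no allowance for the spread between arrays. Alternatives were other priors, scalings, offsets, filters, probe set choices and sample subsets. Scripts were tested on simulated data.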

Additional observations from a re-analysis of the deposited data

How the results depend on the processing

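For genes 17 alternatives were run and for the 15 probe sets 15, and the cause of a lost or gained call was not tested. The number of genes called in NELF-depleted against mock cells, 162, became 0 with a single prior variance, 54 as deposited, 54 with array medians, 3004 with hybridization controls, 74 with an offset of 50, 247 with only genes above the median and 271 with the replicate number as a block (replicate block), and 65 to 127 when 1 array was left out. Against untreated cells 169 became 0 with a single prior variance, 2350 with hybridization controls, 89 with an offset of 50, 270 with the replicate block and 70 to 146 when 1 array was left out. Lower calls made up 130 of the 162, 53 of 54 as deposited, 48 of 54 with array medians and 2987 of 3004 with hybridization controls, and against untreated cells 141 of 169, 187 of 188 as deposited, 124 of 126 with array medians and 2331 of 2350 with hybridization controls. Of the 7 measured genes, 2 were called against mock but 0 with a single prior, as deposited or with array medians, and 1 with an offset of 50, with the median over probe sets, or without mock replicate 1 or 2 or NELF-depleted replicate 1 or 2 (1 to 2 over all single arrays), and 3 with hybridization controls. Against untreated cells 1 was called but 0 with a single prior or the median over probe sets, 2 with only genes above the median, the replicate block or a robust prior, and 3 with hybridization controls. Of the 15 probe sets, the 2 calls against mock became 0 with a single prior, as deposited or with array medians, 1 with an offset of 50, 4 with hybridization controls and 0 to 2 without 1 array. The 2 against untreated became 0 with a single prior, 1 as deposited, with array medians, with an offset of 50 or with only the groups compared, 4 with hybridization controls and 1 whichever array was left out.

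Over these alternatives br kept its call against mock in 13 of 17 and against untreated in 15 of 17, ImpL2 in 9 of 17 against mock, and ImpL2 gained one against untreated in 4. NELF-B and Nelf-E kept theirs in 16 of 17 against either control, and Hsp26 in 11 against mock and 10 against untreated. With an offset of 50 ImpL2 missed the threshold against mock (-0.59, adjusted p = 0.0504). The replicate block gave ImpL2 -0.51 against untreated with an adjusted p of 0.0376 and changed no other call of the 7 genes. Labels do not say what the numbers mark. Same-numbered arrays deviated with correlations of 0.156, 0.158 and 0.145 between the 3 pairs of groups, which with 2 numbers does not show a pairing.

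Uncalled values changed sign as follows, none of them past the threshold. Against mock, usp was 0.046 with array medians and -0.087 to 0.077 without 1 array. Eip78C was -0.021 as deposited, -0.38 with hybridization controls and -0.41 to 0.64 without 1 array. With hybridization controls Hr39 was -0.26 and ftz-f1 -0.11. Against untreated, values as deposited, with array medians and with hybridization controls were -0.27, -0.041 and -0.25 for EcR, -0.39, -0.16 and -0.37 for Eip78C and -0.38, -0.14 and -0.36 for Hr39, and ftz-f1 was -0.12 as deposited and -0.10 with hybridization controls. Hr39 was -0.044 with the median over probe sets. Without 1 array, EcR ran from -0.089 to 0.45, usp from -0.15 to 0.0037, Hr39 from -0.069 to 0.20 and ftz-f1 from -0.10 to 0.74. In mock against untreated cells, br was 0.17 with the median over probe sets and -0.26 to 0.025 without 1 array, ImpL2 was -0.013 with array medians and -0.11 as deposited, Eip78C was 0.010 with hybridization controls and 0.019 with an offset of 50, and ftz-f1 was 0.0082 with hybridization controls. Without 1 array, Eip78C ran there from -0.53 to 0.51, ftz-f1 from -0.43 to 0.42, Hr39 from -0.24 to 0.031 and usp from -0.15 to 0.012. As deposited the median of all genes stood at -0.37 in NELF-depleted against untreated cells and at -0.31 in mock against untreated cells. Where 1 array of a group was left out, the lone array was taken to vary like the other groups. Signal over background limits what dim genes can show.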
